A study of Mus musculus with 24 samples.

Results

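Skeletal muscle genes were followed through RNA-seq libraries of inguinal white fat, a subcutaneous pad of the mouse groin. The 37 genes were named one by one as transcripts of striated muscle fibres, and all 37 were found among the 41388 features of the count tables. They comprised 14 genes of adult fast fibres, 9 genes of slow or oxidative fibres, the neonatal myosin Myh8, and 13 genes that fibre types share. The pads came from male mice in 6 groups of 4 libraries. FMRKO mice carried Adipoq-Cre and floxed alleles of Nr3c2, the mineralocorticoid receptor gene, and were fed a high-fat diet, given corticosterone or kept on chow. Control mice carried the floxed alleles alone and went through the same 3 conditions. The adiponectin promoter drives Cre in adipocytes, so the other cells of the pad, muscle fibres included, keep the floxed gene. The labels give neither the composition of the diet nor the dose, route or duration of corticosterone. They do not say whether replicates were separate animals, so a p-value here speaks only of the spread among libraries, which may be technical.

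A muscle fibre shortens when thick filaments of myosin pull on thin filaments of actin inside repeated units called sarcomeres. Troponin and tropomyosin on the thin filament switch this on when calcium leaves the sarcoplasmic reticulum. Titin and nebulin are giant proteins that set the length and elasticity of the filaments, and alpha-actinin anchors them in the Z-disc. Fast and slow fibres build the same machine from different members of each gene family. The mix of members that is read therefore hints at the kind of fibre the RNA came from. No single gene settles it, since several slow genes are also genes of the heart. White fat has no sarcomeres, but muscle lies close to the inguinal pad.

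The promoters of 4 members are shown because they differ in what their genes did: Myh4, Acta1 and Ckm were among the 5 highest members per gene length in each library rich in muscle RNA, and Casq1 also differed between diets in the other libraries. The windows run from 250 bases before to 50 bases after the gene start in RefSeq (GRCm38.p6). Myh4 is at chr11:67237562-67237861 (plus strand), Acta1 at chr8:123894726-123895025 (minus strand), Ckm at chr7:19410844-19411143 (plus strand) and Casq1 at chr1:172219846-172220145 (minus strand). Capitals mark E-boxes (CANNTG, the core bound by MyoD-family factors), the MEF2 box, the CArG box of serum response factor, and TATAAA.
Myh4: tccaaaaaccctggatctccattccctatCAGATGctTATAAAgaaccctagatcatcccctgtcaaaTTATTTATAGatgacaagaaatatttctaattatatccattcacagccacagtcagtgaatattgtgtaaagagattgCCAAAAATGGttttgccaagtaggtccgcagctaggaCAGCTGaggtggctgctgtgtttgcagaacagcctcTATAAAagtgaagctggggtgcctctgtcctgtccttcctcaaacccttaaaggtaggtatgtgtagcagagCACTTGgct
Acta1: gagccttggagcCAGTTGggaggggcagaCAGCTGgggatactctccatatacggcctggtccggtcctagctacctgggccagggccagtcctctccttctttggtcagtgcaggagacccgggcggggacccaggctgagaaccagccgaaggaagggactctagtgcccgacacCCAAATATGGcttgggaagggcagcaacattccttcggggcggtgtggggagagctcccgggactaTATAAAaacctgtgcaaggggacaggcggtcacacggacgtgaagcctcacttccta
Ckm: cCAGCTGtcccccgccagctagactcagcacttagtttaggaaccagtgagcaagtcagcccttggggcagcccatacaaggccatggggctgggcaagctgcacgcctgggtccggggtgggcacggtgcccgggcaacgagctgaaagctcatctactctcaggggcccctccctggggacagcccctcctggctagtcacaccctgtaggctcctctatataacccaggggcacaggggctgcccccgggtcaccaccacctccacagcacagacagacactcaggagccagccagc
Casq1: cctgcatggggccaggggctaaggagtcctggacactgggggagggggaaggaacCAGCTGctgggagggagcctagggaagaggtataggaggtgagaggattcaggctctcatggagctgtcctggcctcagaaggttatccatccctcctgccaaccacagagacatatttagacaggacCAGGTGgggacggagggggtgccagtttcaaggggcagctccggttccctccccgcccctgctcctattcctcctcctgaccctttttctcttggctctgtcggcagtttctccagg

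RefSeq gave a promoter for 31 of the 37 genes, and none was matched for Tnnt3, Neb, Tnni2, Actn3, Myoz1 and Tcap. Both strands were searched, and CAGCTG matches are also CANNTG matches. The E-box CANNTG was present in 27 of the 31 windows (87.1%), against 72.1% of 27025 mouse promoters of the same length. The form CAGCTG was present in 16 (51.6%), against 16.1% of all promoters. The MEF2 box was found in 7 (22.6%), against 3.26%, the CArG box in 3 (9.68%), against 1.57%, and TATAAA in 7 (22.6%), against 14.2%. These are matches of letters and not measured binding.

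The libraries held 17925109 to 40427675 counts, and 22249 to 24854 genes had at least 1 count. No pair of libraries of a group agreed within counting noise. Nr3c2 was detected at 7.73 to 25.8 CPM (counts scaled to library size, with TMM factors) in FMRKO libraries, with a median of 13.5, and at 14.1 to 28.7 CPM in control libraries, with a median of 18.7. The genotypes overlapped on chow, at 11.3 to 25.8 CPM in FMRKO and 17.6 to 28.7 CPM in control libraries. FMRKO lay below control on the high-fat diet (12.7 to 15.7 against 18.5 to 25.0 CPM). The same held with corticosterone (7.73 to 12.2 against 14.1 to 18.4 CPM). The counts cover the whole gene rather than the floxed exons. All 7 adipocyte markers were detected in every library, with a summed level of 21030 CPM in high-fat diet control 3, 23015 CPM in corticosterone control 2 and 11729 CPM in chow FMRKO 5, with 7982 to 26057 CPM in the other 21 libraries. In whole tissue, fewer cells of a type and less RNA per cell cannot be told apart.

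Of the 6 groups, 3 each held 1 library rich in muscle RNA. The 37 genes took 0.0752% of all counts in high-fat diet control 3 (23771 counts), 0.416% in corticosterone control 2 (168002 counts) and 3.46% in chow FMRKO 5 (619603 counts). In the other 21 libraries they took 0.0113% to 0.0308%, with a median of 0.0165%. The share was thus 4.57, 25.2 and 210-fold the median of the 21, and none of the 21 reached the lowest of the 3. These libraries were known from earlier work on the same data, so their difference from the rest is described without a test. They belong to both genotypes and to all 3 conditions.

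**Figure D1:**
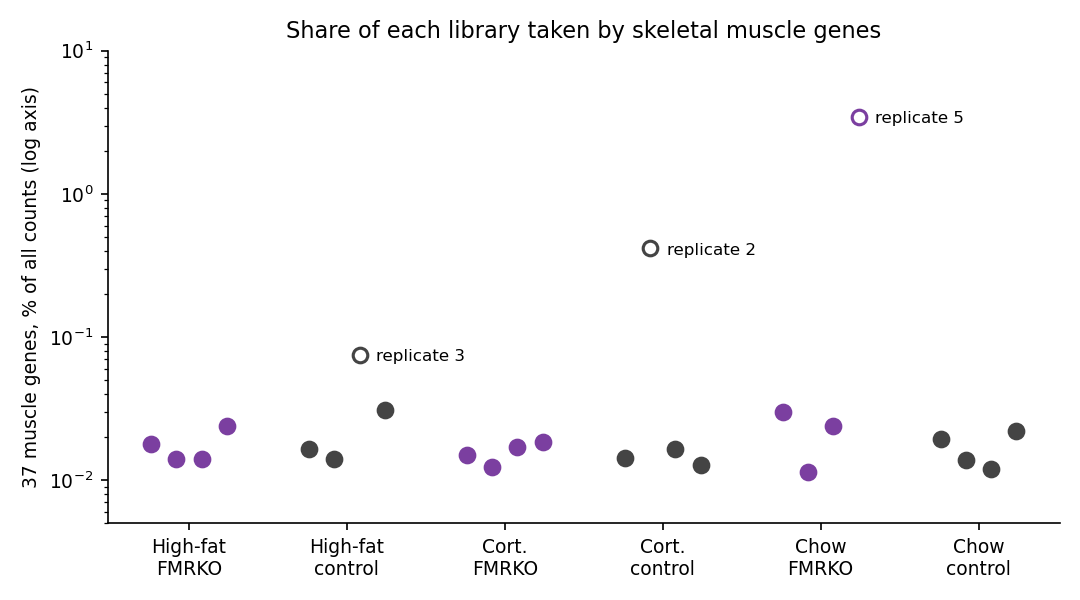
Percentage of all counts taken by the 37 muscle genes (y axis, logarithmic) in each of the 24 libraries, by group (x axis), with FMRKO in purple and control in grey. Open circles are high-fat diet control 3 at 0.0752%, corticosterone control 2 at 0.416% and chow FMRKO 5 at 3.46%, all above the other 21 libraries at 0.0113% to 0.0308%.

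Of the 37 genes, 26 were higher in high-fat diet control 3 than in every one of the 21 other libraries, 35 in corticosterone control 2 and 31 in chow FMRKO 5. Among 22229 genes with 10 or more counts in some library, the same held for 5.96%, 3.73% and 8.80%. The 24 genes above all others in each of the 3 libraries included 12 of the 14 fast genes, 2 of the 9 slow genes, Myh8, and 9 of the 13 shared genes. Casq2, the calsequestrin of heart and slow fibres, was above the others in none.

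**Figure D2:**
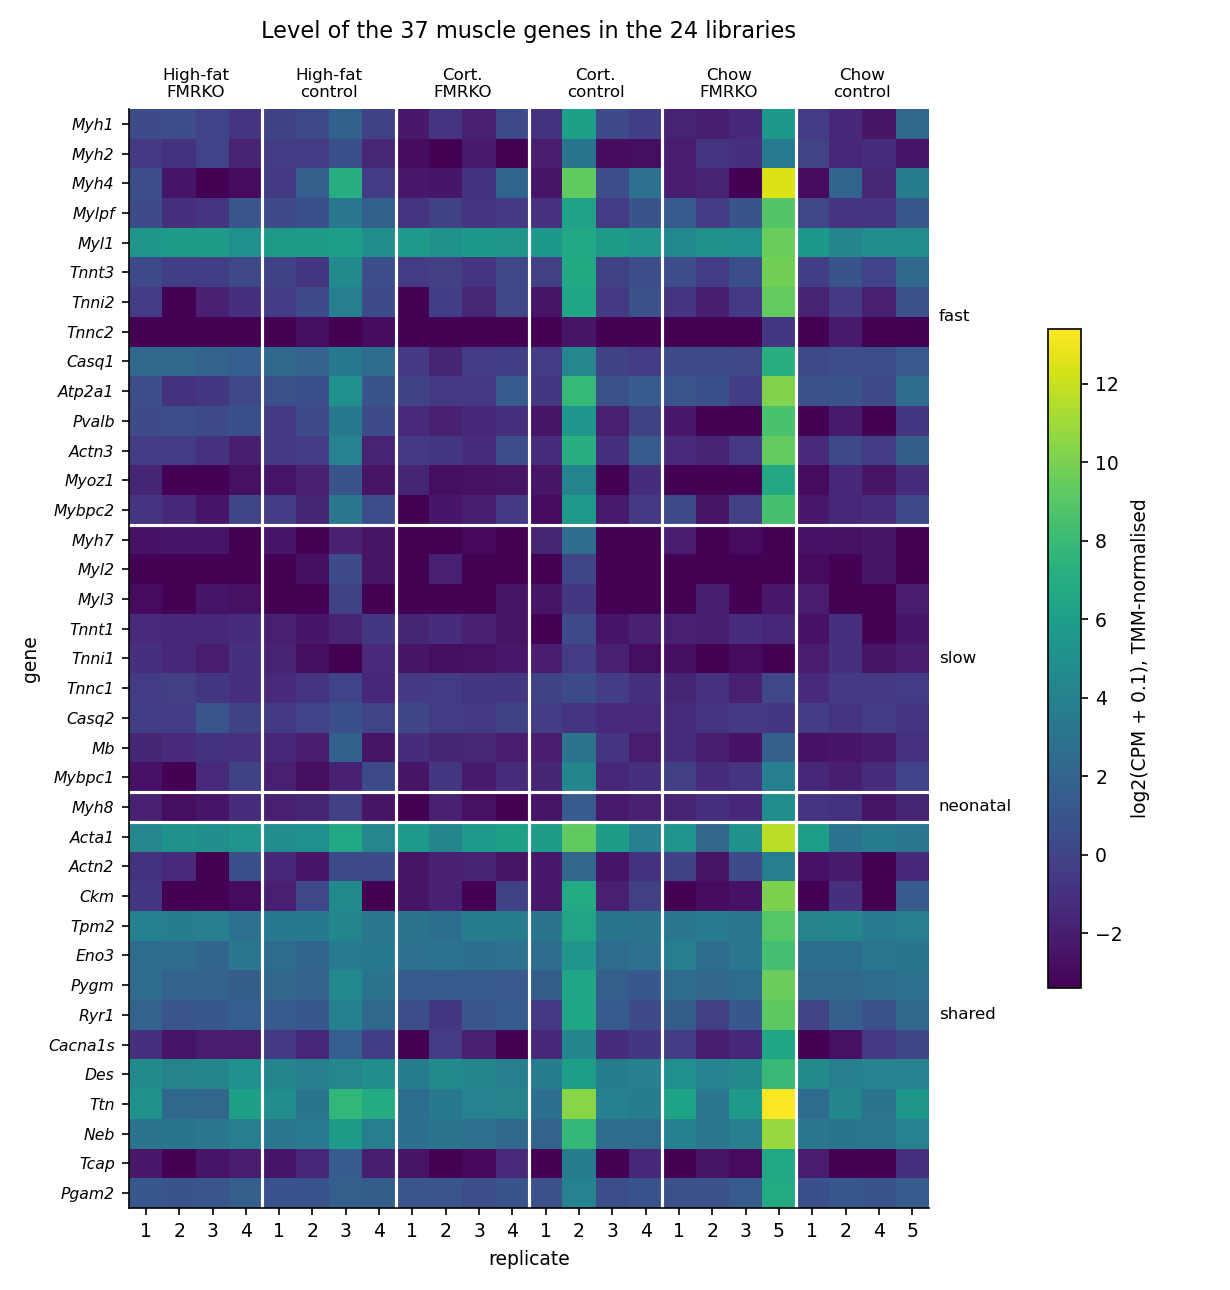
Level of each muscle gene (y axis, grouped as fast, slow, neonatal and shared) in each library (x axis, replicate within group) as log2(CPM + 0.1), from dark (low) to yellow (high). Chow FMRKO 5 and corticosterone control 2 stand out as bright columns and high-fat diet control 3 as a paler one, while Myl1, Acta1, Des and Tpm2 are visible in all 24 libraries.

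Myosin heavy chains, the motors, were almost all of the IIb type. Myh4 (chr11:67238029-67260446, plus strand), which encodes the IIb chain of the fastest fibres, stood at 133.7 CPM in high-fat diet control 3, 640.7 CPM in corticosterone control 2 and 5907 CPM in chow FMRKO 5. It ranged over 0 to 12.6 CPM in the other 21 libraries. Those values were 10.6, 50.9 and 469-fold the highest of the 21, which was chow control 5. After scaling to gene length, Myh4 made up 96.3%, 89.3% and 98.9% of the transcripts of 6 myosin heavy chain genes in the 3 libraries, taken in the same order. The counts behind these shares were 4020, 27640 and 118321.

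The other adult chains differed more between the 3 libraries. Myh1, the IIx chain, made up 2.30% in high-fat diet control 3, 8.87% in corticosterone control 2 and 0.730% in chow FMRKO 5. Myh2, the IIa chain of fast oxidative fibres, made up 0.928%, 1.02% and 0.155%. Myh7, the slow chain that heart ventricle also uses, had 5 counts in high-fat diet control 3 and 233 counts in corticosterone control 2. These came to 0.0877% and 0.597%, and the 5 counts lay within the 0 to 6 counts of the other 21 libraries. Chow FMRKO 5, the library with the most muscle RNA, had 0 Myh7 counts of 118321, and the exact upper limit of that share is 0.00312% (95% Clopper-Pearson, counting error only). Corticosterone control 2 was therefore the library with the largest part of IIx and slow myosin, and chow FMRKO 5 the one with the smallest.

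Developmental chains were a small part in each. Myh8, the neonatal chain, had 22 counts in high-fat diet control 3, 100 in corticosterone control 2 and 541 in chow FMRKO 5, against 0 to 14 in the other 21, and made up 0.281%, 0.187% and 0.234% of the myosin transcripts. Myh3, the embryonic chain, had 5, 7 and 29 counts, against 0 to 6 in the other 21, and made up 0.124%, 0.0254% and 0.0244%. By CPM it stood at 0.174, 0.184 and 1.47, against 0 to 0.224 in the other 21. Only chow FMRKO 5 lay above that range. Of the 50-base stretches of the transcripts, 18.6% in Myh4, 26.1% in Myh1, 26.7% in Myh2 and 19.9% in Myh8 also occur in another of the 6 genes, against 0.210% in Myh7 and 3.66% in Myh3. The sources used here do not say how reads with several hits were counted, so the smaller IIx, IIa and neonatal shares are uncertain. The slow share is the least touched by such reads, but in high-fat diet control 3 it rests on 5 counts.

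**Figure D3:**
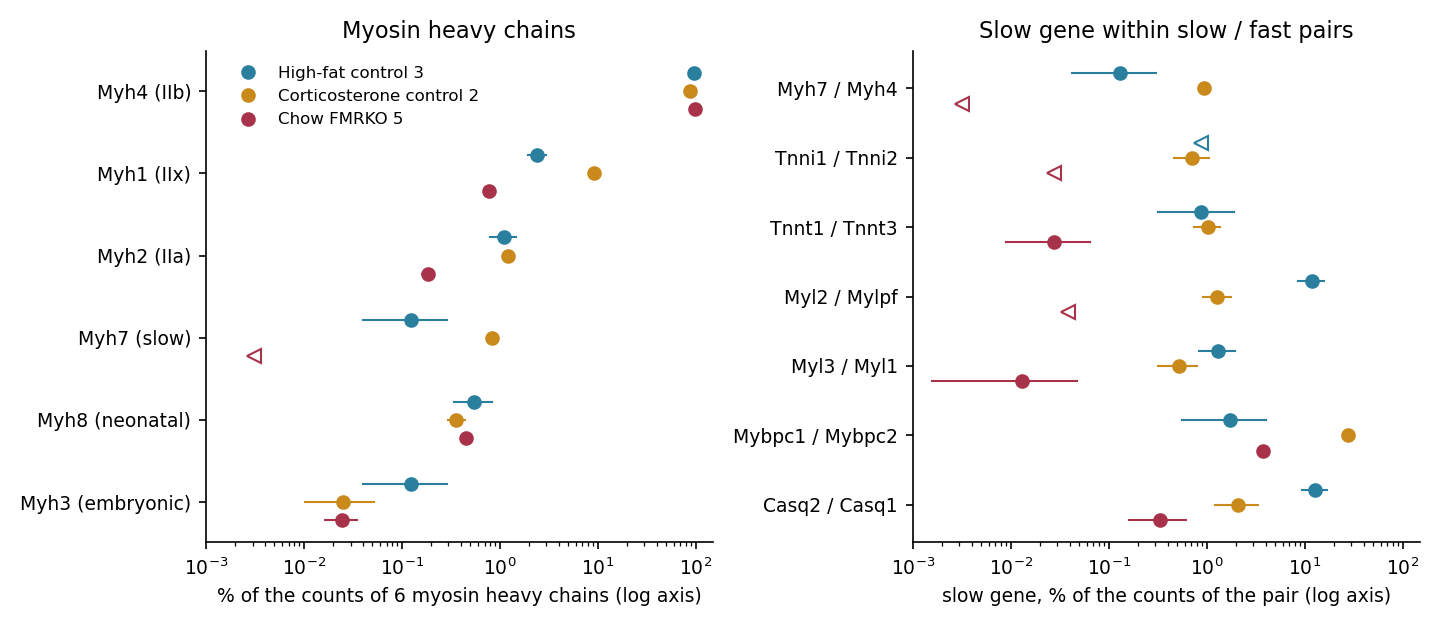
Left, percentage of the counts of 6 myosin heavy chain genes taken by each; right, percentage of the counts of a slow and fast gene pair taken by the slow gene, both on logarithmic x axes for the 3 muscle-rich libraries. Points carry exact binomial 95% intervals, and open triangles mark the upper limit of a share with 0 counts; Myh4 lies near the right edge in all 3, and Myh7, Tnni1 and Myl2 are at 0 in chow FMRKO 5.

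The slow share of troponin and light chain pairs was lowest, or 0, in chow FMRKO 5, while the order of the other 2 libraries differed between pairs. Troponin I, the inhibitory subunit, came from the fast gene Tnni2 with 415 counts in high-fat diet control 3, 3460 in corticosterone control 2 and 13211 in chow FMRKO 5, whereas the slow gene Tnni1 had 0, 25 and 0 counts. Tnnt1, the slow troponin T that ties the complex to tropomyosin, made up 0.872%, 1.03% and 0.0277% of the counts of Tnnt1 and its fast partner Tnnt3. Tnnt1 itself had 6, 44 and 5 counts, against 0 to 14 in the other 21 libraries. Myl2, the slow and ventricular regulatory light chain, made up 11.9% of the counts of Myl2 and the fast chain Mylpf in high-fat diet control 3, 1.29% in corticosterone control 2 and 0% in chow FMRKO 5. Its share was highest in the library with the least muscle RNA, unlike that of Myh7 and Tnni1. Myl3, the slow essential light chain, made up 1.30%, 0.524% and 0.0131% of the counts of Myl3 and Myl1.

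Troponin C, the calcium sensor, did not follow this pattern. The slow and cardiac gene Tnnc1 had 25, 45 and 20 counts, and the fast gene Tnnc2 had 0, 3 and 10. Tnnc2 overlaps Ube2c on the other strand over 74% of its exon bases, and the sources used here do not say whether strand was used in counting, so the genes of such a pair cannot be told apart. Ckm with A930016O22Rik (31.9%) and Atp2a1 with Rabep2 (21.9%) overlap other genes as well. Myosin binding protein C, which braces the thick filament, also stood apart. The slow gene Mybpc1 made up 1.74% of the counts of Mybpc1 and the fast gene Mybpc2 in high-fat diet control 3, 27.8% in corticosterone control 2 and 3.73% in chow FMRKO 5. Its 5 counts in high-fat diet control 3 lay within the 0 to 32 counts of the other 21 libraries.

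By RPKM, which scales CPM to gene length so that genes can be compared, skeletal actin led. Acta1, which encodes the actin of the thin filament, reached 68.0 RPKM in high-fat diet control 3, 440 RPKM in corticosterone control 2 and 2265 RPKM in chow FMRKO 5, against 2.96 to 46.2 RPKM in the other 21. In chow FMRKO 5 it was followed by Myh4 at 982 RPKM, the muscle creatine kinase Ckm at 775 RPKM, Tnnt3 at 657 RPKM, Mylpf at 550 RPKM and Tnni2 at 447 RPKM. In corticosterone control 2 the next genes were Myh4 at 106.5 RPKM, Mylpf at 86.4 RPKM and Ckm at 83.7 RPKM. Titin, whose transcript is very long, took the most reads of the 37 genes. Ttn held 25.2%, 30.9% and 34.4% of the counts of all members in the 3 libraries, in the same order.

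Most of the named genes of calcium handling and energy supply were also above the other 21 libraries, with Casq2 as an exception in all 3. Pvalb, the calcium buffer parvalbumin of fast fibres, stood at 10.4, 43.8 and 385 CPM in the 3 libraries, against 0 to 1.51 CPM in the other 21. Atp2a1, the calcium pump SERCA1, stood at 32.2, 227 and 1213 CPM, against 0.430 to 5.86 CPM. Ckm, which buffers ATP, stood at 23.8, 118 and 1097 CPM, against 0 to 2.64 CPM. Pygm, the glycogen phosphorylase of muscle, stood at 21.9, 93.1 and 742 CPM, against 2.14 to 8.15 CPM. Mb encodes myoglobin, the oxygen store of oxidative fibres. It stood at 3.20 CPM in high-fat diet control 3, 8.43 CPM in corticosterone control 2 and only 3.19 CPM in chow FMRKO 5, against 0.0643 to 0.454 CPM in the others.

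Fast and slow genes differed in how far they stood above the other libraries. The median fast gene was 5.18-fold above the highest of the other 21 libraries in high-fat diet control 3, 26.4-fold in corticosterone control 2 and 202-fold in chow FMRKO 5. For the shared genes the medians were 1.67, 10.9 and 86.8-fold. The median slow gene was 0.808, 3.37 and 0.484-fold the highest of the 21. Of the 9 slow genes, 4 were above all 21 in high-fat diet control 3, 8 in corticosterone control 2 and 3 in chow FMRKO 5 (Tnnc1, Mb and Mybpc1).

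**Figure D4:**
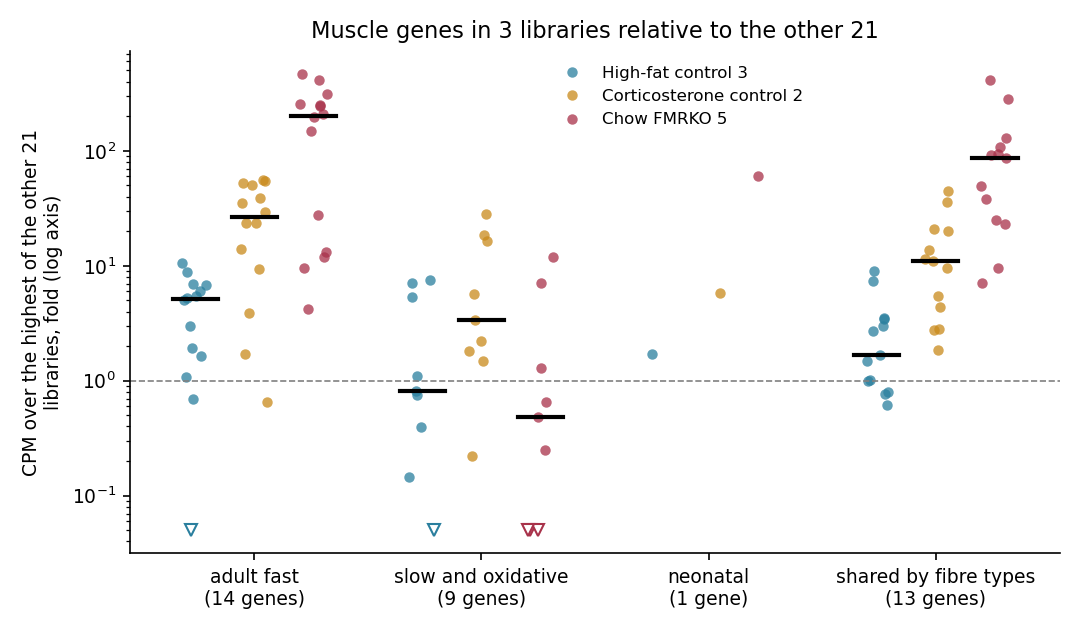
CPM of each gene in a muscle-rich library divided by the highest CPM among the other 21 libraries (y axis, logarithmic), by gene class (x axis). Bars are medians, the dashed line marks equality and open triangles are genes with 0 counts; fast genes reach 469-fold in chow FMRKO 5, where the median slow gene is at 0.484-fold.

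Set against Myh4, some members stood in nearly the same proportion in all 3 libraries and others did not. For every 1000 Myh4 counts there were 178 Ckm counts in high-fat diet control 3, 185 in corticosterone control 2 and 186 in chow FMRKO 5. Tnnt3 stood at 177, 173 and 155 counts, and Tcap, which caps titin at the Z-disc, at 19.2, 19.7 and 16.7 counts. Actn3, the alpha-actinin of fast fibres, varied more, at 125, 234 and 114 counts, and the fast light chain gene Myl1 stood at 472, 156 and 131. Myl1 had 63.1 CPM in high-fat diet control 3, little above the 19.1 to 58.6 CPM of the other 21 libraries. Its proportion to Myh4 there therefore includes the level found without much muscle RNA. Mb stood at 23.9, 13.2 and 0.540 counts, Myh1 at 25.2, 105 and 7.80 counts, and Mybpc1 at 1.30, 31.0 and 2.40 counts. Des, the intermediate filament desmin, stood at 155, 96.1 and 40.1 counts; it is also made by smooth muscle and had a level of 12.3 to 33.4 CPM in the other 21 libraries.

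Muscle genes outside the 37 were read from companion lists. Of 25 other genes of the sarcomere and of the triad, where calcium release is triggered, 16 were above all 21 other libraries in high-fat diet control 3, 24 in corticosterone control 2 and 23 in chow FMRKO 5. Xirp2, an actin-binding protein of striated muscle, stood at 9.10, 35.5 and 259 CPM in the same libraries, against 0 to 1.24 CPM in the others. Of 11 genes of muscle energy metabolism, 4, 4 and 8 were above all others.

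Regulators of muscle identity were present at low counts. Of 10 such genes, 2, 3 and 5 were above all 21. Myf6, a MyoD-family factor of mature fibres, had 4, 26 and 114 counts in the 3 libraries, and Pax7, the marker of satellite cells, had 0, 1 and 12. Of 7 genes of embryonic and regenerating fibres, 2, 0 and 2 were above all others, and of 8 genes of the neuromuscular junction 0, 0 and 3. Of 9 genes linked to muscle atrophy, 2, 3 and 3 were above. Trim63, a ubiquitin ligase of the sarcomere, stood at 0.973, 3.78 and 21.6 CPM, against 0 to 0.215 CPM in the others.

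Markers of other tissues were read in the same libraries. High-fat diet control 3 held 461 counts of Myh6, the atrial myosin heavy chain, at 16.0 CPM against at most 0.386 CPM in the other 21. It also held 88 counts of Tnnt2 and 93 of Actc1, the troponin T and actin of heart and embryonic muscle, at 3.06 and 3.23 CPM. Actc1 was higher in chow FMRKO 5, with 258 counts at 13.1 CPM, where Myh6 and Tnnt2 had 0 counts. Myh6 was the 1 gene of 7 cardiac markers above all 21 in high-fat diet control 3. In that library Tnni3 and Mybpc3 lay within the range of the others, Nppa had 3 counts, Myl7 had 2, and Nppb had 0. The summed cardiac level was 19.7 CPM in high-fat diet control 3, 0.787 CPM in corticosterone control 2 and 2.23 CPM in chow FMRKO 5, and lay at 0.413 to 4.38 CPM in the other 21. Myh6 and Myl2 were thus high together in high-fat diet control 3, with Myl2 at 1.32 CPM. Myl2 was also above the other 21 in corticosterone control 2, at 0.997 CPM, where Myh6 had 6 counts. The part that cells of another kind played was not tested.

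In chow FMRKO 5, 4 of 7 Schwann cell markers were above all 21 others, with a summed level of 196.9 CPM against 74.2 to 183.7 CPM. The summed levels of smooth muscle and tendon markers lay within the range of the 21 in all 3 libraries. Lymphocyte markers summed to 28.8 CPM in high-fat diet control 3, 4.78 CPM in corticosterone control 2 and 16.3 CPM in chow FMRKO 5, all within the 3.86 to 688.5 CPM of the others.

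The other 21 libraries held low levels of most members. Between 29 and 35 of the 37 genes had a count, and 17 to 27 had 10 or more. Acta1 had the highest median, 23.0 RPKM, followed by Myl1 at 22.1 RPKM, Des at 4.66 RPKM, Eno3 at 3.89 RPKM and Tpm2 at 3.55 RPKM. Acta1 ranged from 4.25 CPM in chow FMRKO 2 to 66.2 CPM in corticosterone FMRKO 4. Chow control 5 had the highest Ckm and Myh4 of the 21, at 2.64 and 12.6 CPM, with Acta1 at 9.69 CPM. Chow control 5 also had a different mix of myosins, with 286 Myh4 and 110 Myh1 counts of 405, or 72.2% and 26.3% after scaling to length, and 0 Myh7.

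Ttn, Actn2 and Eno3 were highest where lymphocyte markers were. The 4 libraries with the highest summed lymphocyte level, which lay between 354 and 688.5 CPM, were high-fat diet FMRKO 4, high-fat diet control 4, chow FMRKO 1 and chow FMRKO 3. Ttn stood at 67.6, 124.6, 80.9 and 50.1 CPM in them, above its level in the other 17, where chow control 5 was highest at 44.5 CPM. Actn2, an alpha-actinin of the Z-disc, stood at 1.54, 1.31, 0.837 and 1.29 CPM in the same libraries. Eno3, the enolase of muscle, stood at 9.39, 10.2, 14.4 and 9.64 CPM, and neither gene reached the lowest of these values in the other 17. Ckm did not share this, at 0.0314, 0, 0 and 0.0647 CPM in the same libraries. The part of lymphoid cells in these levels was not tested.

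Whether loss of the receptor in adipocytes went with a change in muscle RNA was asked by setting FMRKO against control in each condition. Acta1 stood at 42.3, 4.25, 38.2 and 3246 CPM in FMRKO pads on chow, against 60.8, 7.84, 12.7 and 9.69 CPM in control pads on chow. Chow FMRKO 1 and 3 lay among the controls, chow FMRKO 2 lay below all of them, and chow FMRKO 5 lay far above. With all 24 libraries, Acta1 differed by a log2 fold change of 5.19 ± 1.53 (SE; edgeR quasi-likelihood test, adjusted p = 0.285). Ckm differed by 8.64 ± 2.83 (edgeR adjusted p = 0.288), Myh4 by 8.49 ± 3.11 (0.307), Des by 2.13 ± 0.66 (0.285) and Tnnt1 by 0.72 ± 0.94 (0.804).

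Of the 31 members with enough counts to be tested, 0 passed in any of the 3 conditions. In those conditions, listed as chow, diet and hormone, edgeR called 0.0101%, 0.0101% and 0.00507% of 19717 genes. Unadjusted p-values under 0.05 were found for 25, 0 and 22 members, against 2353, 781 and 843 of all genes. DESeq2 called 1, 0 and 0 of the 5 members to which it gave an adjusted p. The median log2 fold change of the tested members was 5.19, -1.17 and -3.84, against -0.02, 0.00 and 0.01 over all genes, and each of these leans toward the group with the muscle-rich library.

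Without the 3 muscle-rich libraries 29 members could be tested and 0 passed in any condition, where edgeR called 0.0100%, 0.0100% and 0.00501% of 19953 genes. Unadjusted p-values under 0.05 were found for 6, 0 and 0 members, against 3031, 724 and 754 of all genes. The medians were -0.06, -0.07 and -0.21. On chow Acta1 then differed by 0.37, Des by 0.48, Ckm by -4.27 (edgeR adjusted p = 0.33) and Myh4 by -5.19 (0.249), so the last 2 changed sign. The difference between conditions in the FMRKO effect was also tested, and edgeR called 0 of 31 members and 0% of all genes for the high-fat diet and for corticosterone.

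Diet and corticosterone were then set against chow within each genotype. All 8 chow titles, and none of the other 16, carry a number ahead of the group name; if it marks a batch, batch and condition cannot be told apart. With all 24 libraries, edgeR found 21 members lower and 1 higher on the high-fat diet than on chow in FMRKO mice, where 24.4% of all genes were called, 9.18% lower and 15.2% higher. With corticosterone 26 members were lower in FMRKO mice, where 41.1% of all genes were called and 20.9% were lower. Both counts rested on chow FMRKO 5. Without that library 1 and 0 members were called.

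In control mice 0 members passed on the high-fat diet (edgeR, 29.2% of all genes; 1 member had an unadjusted p under 0.05, and DESeq2 called 0). With corticosterone 2 rose, Mb by 3.82 ± 1.401 on the log2 scale (edgeR adjusted p = 0.0327) and Pvalb by 6.23 ± 2.48 (0.0482), where 42.9% of all genes were called and 20.2% rose. Mb stood at 0.143, 8.43, 0.454 and 0.128 CPM in control pads with corticosterone, against 0.0643, 0.0905, 0.118 and 0.396 CPM in control pads on chow. Only corticosterone control 2 lay above the chow range by more than a small step, and without it 0 members were called. Without chow FMRKO 5, 20 members were called in the same comparison.

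With the 3 muscle-rich libraries left out, a smaller set of genes differed from chow, and the background was large. On the high-fat diet 2 members rose in FMRKO mice and 2 in control mice, where edgeR called 11.6% (8.94% lower) and 13.0% of all genes higher. With corticosterone 4 members fell and 1 rose in FMRKO mice, where edgeR called 37.8% of all genes, 19.6% lower and 18.2% higher. In control mice 4 members fell, where 39.0% of all genes were called, 19.1% lower. The members called, 2 to 5 of 29, are no larger a share than among all genes. The median member moved by 0.19 and 0.26 on the high-fat diet in FMRKO and control mice, and by -0.27 and -0.45 with corticosterone, against -0.10, -0.02, -0.10 and -0.11 over all genes.

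Casq1 (chr1:172209894-172219868, minus strand), the calcium store protein of fast fibres, was the member that went both ways. It stood at 4.61, 4.56, 3.76 and 2.92 CPM in FMRKO pads on the high-fat diet, against 1.20, 1.21 and 1.10 CPM in FMRKO pads on chow. In control pads it stood at 4.44, 3.67 and 5.39 CPM on the high-fat diet, against 1.16, 1.39, 1.42 and 2.38 CPM on chow. With corticosterone it stood at 0.552, 0.221, 0.647 and 0.714 CPM in FMRKO pads and at 0.645, 0.825 and 0.642 CPM in control pads. The 3 conditions did not overlap in either genotype.

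Casq1 rose on the high-fat diet by 1.70 ± 0.31 on the log2 scale in FMRKO mice (edgeR adjusted p = 0.000946) and by 1.49 ± 0.29 in control mice (0.00133). With corticosterone it fell by 1.13 ± 0.31 in FMRKO mice (edgeR adjusted p = 0.00926) and by 1.14 ± 0.32 in control mice (0.0089). Each of these 4 calls held when any further library was left out, with adjusted p up to 0.039. Casq2 is the sister gene of heart and slow fibres. With all 24 libraries it was the 1 member that was higher on the high-fat diet in FMRKO mice, by 1.19 ± 0.38 (edgeR adjusted p = 0.0238), and by 1.18 ± 0.41 without the muscle-rich libraries (0.0513). The call with all 24 libraries was lost without high-fat diet FMRKO 3 or without chow FMRKO 1 (edgeR adjusted p up to 0.217).

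Pvalb was the second member that rose on the high-fat diet, from few counts. It stood at 1.34, 1.38, 1.21 and 1.51 CPM in FMRKO pads on the high-fat diet, against 0.112, 0 and 0 CPM in FMRKO pads on chow. In control pads it stood at 0.576, 1.32 and 1.35 CPM on the high-fat diet, against 0, 0.121, 0 and 0.528 CPM on chow. The difference was 4.82 ± 1.16 in FMRKO mice (edgeR adjusted p = 0.00671) and 2.77 ± 0.94 in control mice (0.0367). With so few counts on chow the fitted fold change depends on the prior count, and the call in control mice was lost when single libraries were left out (adjusted p up to 0.0837).

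Neb and Pygm were the members that fell with corticosterone in both genotypes beside Casq1. Neb, which encodes nebulin, stood at 6.59, 8.35, 7.35 and 4.82 CPM in FMRKO pads with corticosterone, against 15.4, 9.19 and 15.3 CPM in FMRKO pads on chow. In control pads it stood at 3.80, 5.90 and 5.60 CPM, against 9.70, 8.63, 9.79 and 16.3 CPM on chow. It fell by 1.01 ± 0.26 in FMRKO mice (edgeR adjusted p = 0.00679) and by 1.09 ± 0.28 in control mice (0.00438). Pygm stood at 2.73, 2.52, 2.70 and 2.32 CPM in FMRKO pads with corticosterone, against 5.69, 4.32 and 5.76 CPM on chow, and fell by 1.06 ± 0.27 (edgeR adjusted p = 0.0052). In control mice it fell by 1.03 ± 0.28 (edgeR adjusted p = 0.00663). None of the corticosterone libraries reached the lowest chow library for either gene.

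The other 3 members were called in 1 genotype each. Tpm2, a tropomyosin that smooth muscle also makes, fell by 0.87 ± 0.25 in control mice with corticosterone (edgeR adjusted p = 0.0105). Myh2 fell by 2.78 ± 0.91 in FMRKO mice (edgeR adjusted p = 0.0237), and Tnnc1 rose there by 1.08 ± 0.39 (0.0378). Both rest on few reads. Myh2 had 1, 0, 4 and 0 counts in FMRKO pads with corticosterone, against 5, 12 and 11 on chow. Tnnc1 had 16, 14, 17 and 14 counts, against 8, 10 and 5 on chow. The calls for Myh2 and Tnnc1 were lost when single libraries were left out. The effect of corticosterone in FMRKO mice minus that in control mice, tested in the same 21 libraries, was not called for any of them: it was 0.77 ± 0.35 for Tpm2 (edgeR adjusted p = 0.696), -0.52 ± 1.24 for Myh2 (0.960) and 0.76 ± 0.54 for Tnnc1 (0.795). A difference between genotypes was therefore not shown, which does not make the effects alike.

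**Figure D5:**
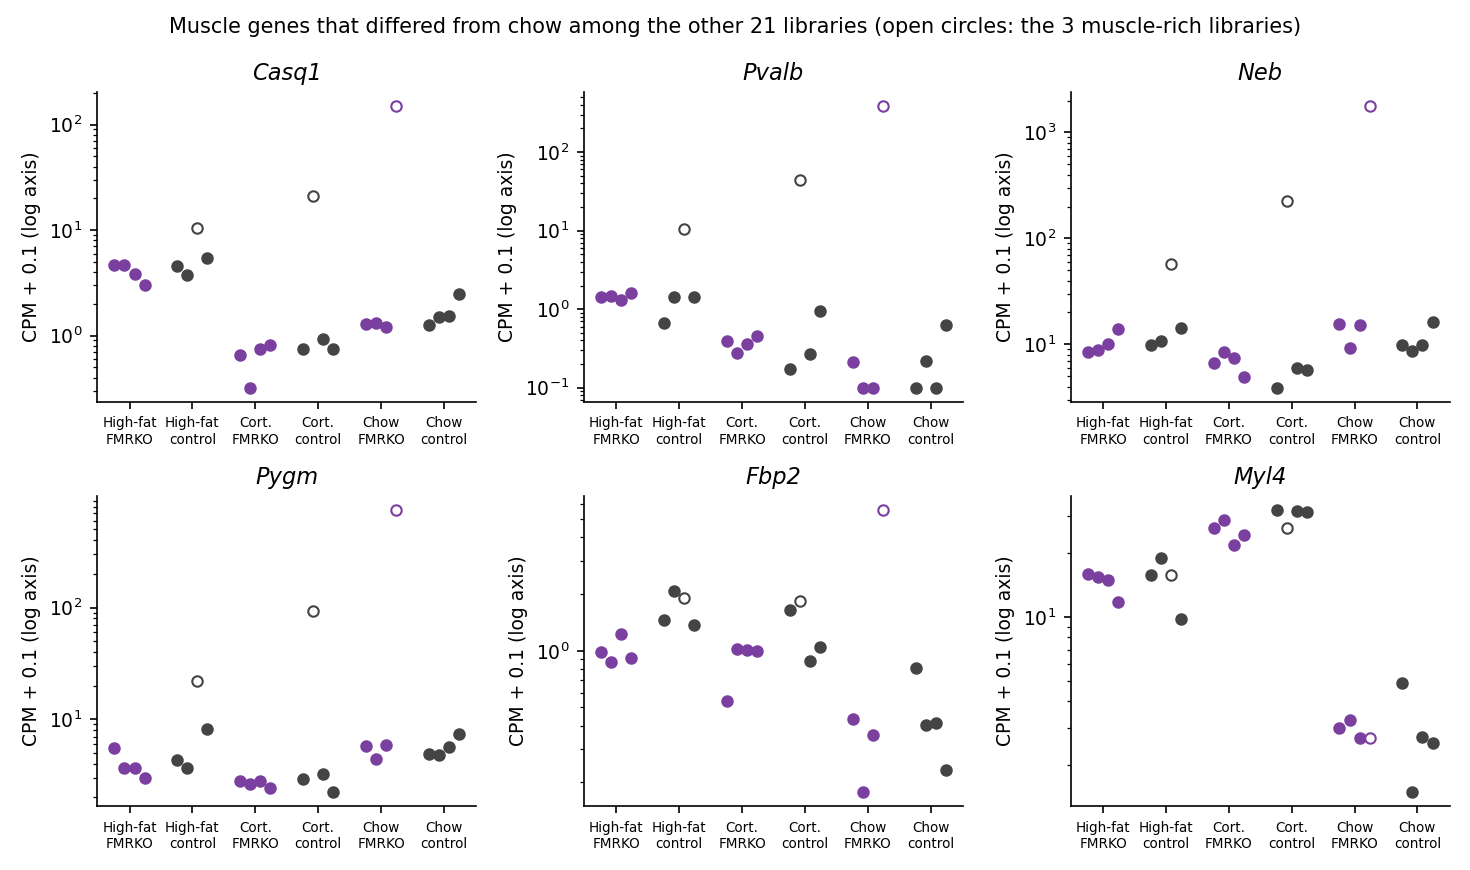
Level as CPM + 0.1 (y axis, logarithmic) of 4 members and of the companion genes Fbp2 and Myl4 in each library, by group (x axis), with FMRKO in purple, control in grey and the 3 muscle-rich libraries open. Casq1 is highest on the high-fat diet and lowest with corticosterone among the filled points, and Myl4 separates all high-fat diet and corticosterone libraries from all chow libraries, muscle-rich ones included.

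One companion gene separated the conditions in all 24 libraries. Myl4, the essential light chain of embryonic muscle and atrium, stood at 11.6 to 15.8 CPM in FMRKO pads and 9.72 to 18.9 CPM in control pads on the high-fat diet. It stood at 21.7 to 28.6 CPM in FMRKO pads and 26.3 to 31.8 CPM in control pads with corticosterone. On chow it stood at 2.58 to 3.15 CPM in FMRKO pads and 1.39 to 4.75 CPM in control pads. It rose on the high-fat diet by 2.36 ± 0.25 in FMRKO mice (edgeR adjusted p = 1.22e-06) and by 2.42 ± 0.25 in control mice (7.47e-07). With corticosterone it rose by 3.17 ± 0.26 in FMRKO mice (edgeR adjusted p = 3.43e-08) and by 3.43 ± 0.26 in control mice (1.19e-08). Chow FMRKO 5, with the most muscle RNA, had 2.58 CPM of Myl4, and corticosterone control 2 had 26.3 CPM, within the range of the corticosterone pads.

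Other muscle-named companions also moved among the 21 libraries. Fbp2, the fructose bisphosphatase of muscle, rose by 1.88 ± 0.49 on the high-fat diet in FMRKO mice (edgeR adjusted p = 0.0111) and by 2.03 ± 0.45 in control mice (0.00329). With corticosterone Fbp2 rose by 1.74 ± 0.49 in FMRKO mice (edgeR adjusted p = 0.0107) and by 1.58 ± 0.45 in control mice (0.0102). These fold changes rest on few reads on chow. Fbp2 had 12, 2 and 8 counts there in FMRKO pads and 22, 10, 8 and 3 in control pads. Cox8b, a cytochrome oxidase subunit of muscle and brown fat, fell with corticosterone by 2.00 ± 0.47 in FMRKO mice (edgeR adjusted p = 0.00309) and by 1.93 ± 0.50 in control mice (0.00497). Of 10 tested genes of muscle energy metabolism, 4 rose on the high-fat diet in FMRKO mice, and 4 rose and 1 fell in control mice. With corticosterone 3 rose and 2 fell in each genotype. Among all genes, 11.6% rose and 8.94% fell on the high-fat diet in FMRKO mice, and 13.0% rose and 13.1% fell in control mice. With corticosterone 18.2% rose and 19.6% fell in FMRKO mice, and in control mice 39.0% were called, 19.1% lower.

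Of 16 tested genes of the sarcomere and triad, 2 rose on the high-fat diet in FMRKO mice and 1 fell in control mice. With corticosterone 1 rose and 2 fell in FMRKO mice, and 2 fell in control mice. Set against the shares of all genes just given, these counts are near the background or below it. Of the 8 tested atrophy genes, Foxo1, a transcription factor of fasting and glucocorticoid response, and Gadd45a rose with corticosterone in both genotypes. Fbxo32, a ubiquitin ligase of the same list, fell with corticosterone in both genotypes. Among all genes 18.2% rose with corticosterone in FMRKO mice, and a response of the atrophy list as a whole was not tested. Foxo1 rose by 1.03 ± 0.21 in FMRKO mice (edgeR adjusted p = 0.00106) and by 1.36 ± 0.20 in control mice (5.52e-05).

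Marker lists moved in the same comparisons without the muscle-rich libraries. All 10 lymphocyte markers rose in control mice on the high-fat diet, with a median of 4.50, and 8 of 10 fell in FMRKO mice with corticosterone. Their summed level was uneven within groups. It was 209, 25.2 and 674 CPM in control pads on the high-fat diet, against 11.5 to 15.1 CPM on chow. In FMRKO pads it was 4.57, 50.4, 49.3 and 3.86 CPM with corticosterone, against 688.5, 12.4 and 354 CPM on chow. On the high-fat diet FMRKO pads stood at 179, 13.5, 16.1 and 425 CPM. Of 7 Schwann cell markers, 5 fell in control mice on the high-fat diet and 5 in FMRKO mice with corticosterone. Of 7 adipocyte markers, 4 rose with corticosterone in each genotype. In these fits edgeR called 26.1% of all genes for the high-fat diet in control mice, and with corticosterone 37.8% in FMRKO mice and 39.0% in control mice. Their part in the changes of the muscle genes was not tested.

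Outside all lists, the genes whose log2 level was most like that of the summed members over the 24 libraries were Mypn (Pearson r = 0.968), Tmem233 (0.955), Myo18b (0.953), Asb5 (0.950) and Cmya5 (0.938). Ky (0.929), Tmem38a (0.920), Nctc1 (0.918), Txlnb (0.903) and Rbfox1 (0.899) followed. The 3 muscle-rich libraries set most of the spread in these values. Mypn, which encodes myopalladin of the Z-disc, stood at 1.04, 7.61 and 45.8 CPM in high-fat diet control 3, corticosterone control 2 and chow FMRKO 5, against 0 to 0.352 CPM in the others. Tmem38a, a potassium channel of the sarcoplasmic reticulum, stood at 3.82, 12.9 and 75.5 CPM, against 1.85 to 3.61 CPM.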

How the data were processed

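Total RNA from flash-frozen inguinal fat was extracted with TRIzol and column kits and made into ribosomal-RNA-depleted libraries, per the labels' protocols. The authors deposited, for each library, read counts per gene together with CPM and RPKM values, per the file headers. STAR 2.5.1a, featureCounts 1.4.6p-5 and GRCm38 come from the labels, per the submitters' processing notes. Which annotation and strand setting were used, and how multi-mapping reads were handled, is not given in the sources used here. The deposited CPM and RPKM were recomputed from the counts to within 3.5e-10 and 1.3e-10, and only the counts were used further. Ensembl identifiers were paired with symbols for 40254 of 41388 features (97.26%).

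Levels are TMM-normalised CPM, or RPKM where genes are compared, computed from the counts. Counts were fitted in R 4.3.3 with edgeR 4.0.16 (quasi-likelihood test, all 6 groups in 1 fit, no covariates, 18 residual degrees of freedom) after filterByExpr with a minimum count of 10, which left 19717 genes, or 19953 without the 3 muscle-rich libraries. Fold changes used a prior count of 0.125, Benjamini-Hochberg adjustment ran over every gene in the fit, and the threshold was 0.05. By chance 986 genes would have an unadjusted p under 0.05. Tnnc2, Myoz1, Myh7, Myl2, Myl3 and Tnni1 were too low to be tested, and without the muscle-rich libraries Myh8 and Tcap as well.

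The members and lists were chosen with earlier results of these data known. FMRKO against control was to be given for Acta1, Ckm, Myh4, Myh7, Tnnt1 and Des, all other members were named when past the threshold, listed genes could be named with their level, and the 10 genes most alike were named. Companion genes given with fold changes were chosen after their values were seen. Alternatives were DESeq2 1.42.0, its size factors, no filter, robust empirical Bayes, a prior count of 2, a replicate block, each library left out in turn, and the 3 muscle-rich libraries left out. Same-numbered libraries deviated together on the high-fat diet (r = 0.204, 0.548, 0.547 and 0.723) and not on chow (-0.283, 0.108 and -0.141) or with corticosterone (-0.003, -0.04, 0.053 and 0.077). Even numbers made up 59.6% to 63.1% of counts between 1 and 100, so binomial intervals, which cover counting error only, may be too narrow.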

Additional observations from a re-analysis of the deposited data

Results flagged for a closer look

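The 3 muscle-rich libraries were known for their high muscle genes beforehand, so their distance from the rest of their groups is a description and no test. The gap of the most distant library was taken in 66 sets of 4 values. These are the summed members and single members in each of the 6 groups, so the sets share libraries. Each gap was set against the 95% critical value of Dixon's ratio, which chance exceeds in about 1 in 20 independent sets. No count of gaps beyond it is compared with this rate. In chow FMRKO 5 the gap exceeded it for the summed members (3.138e+04 CPM), Myh4 (5907 CPM), Acta1 (3246 CPM), Neb (1774 CPM), Ckm (1097 CPM), Pygm (741.8 CPM), Pvalb (384.7 CPM), Des (237 CPM) and Casq1 (149.7 CPM). In corticosterone control 2 it held for the summed members (4410 CPM), Myh4 (640.7 CPM), Acta1 (631.1 CPM), Neb (223.2 CPM), Ckm (118.4 CPM), Pygm (93.05 CPM), Des (61.58 CPM), Pvalb (43.81 CPM), Casq1 (20.79 CPM), Myh7 (6.116 CPM) and Tnnt1 (1.155 CPM). In high-fat diet control 3 it held for Myh4 (133.7 CPM), Acta1 (97.51 CPM), Neb (57.34 CPM), Ckm (23.8 CPM) and Pvalb (10.39 CPM).

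Other libraries stood apart for single genes. Chow control 1 had 60.78 CPM of Acta1, against 7.84 to 12.7 CPM in the other control pads on chow. Chow control 5 had 2.642 CPM of Ckm, against 0 to 0.362 CPM, and 16.29 CPM of Neb, against 8.63 to 9.79 CPM. High-fat diet FMRKO 1 had 1.477 CPM of Myh4 and 0.4924 CPM of Ckm, against at most 0.086 and 0.0314 CPM in the other FMRKO pads on that diet. Corticosterone FMRKO 4 had 3.892 CPM of Myh4, against 0.0883 to 0.411 CPM, and corticosterone FMRKO 3 had 0.0294 CPM of Myh7 where the others had 0.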

How the results depend on the processing

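Leaving out the 3 muscle-rich libraries gave 2 members past the threshold for the high-fat diet in FMRKO mice and 2 in control mice, and 5 and 4 for corticosterone. FMRKO against control then reversed, as log2 fold changes, to -4.27 for Ckm and -5.19 for Myh4 on chow, to 0.23 for Acta1 on the high-fat diet, and to 0.14 for Acta1, 1.17 for Tnnt1 and 0.33 for Des with corticosterone. For the high-fat diet it reversed Acta1 to 0.12, Ckm to 1.85, Myh4 to 1.802, Casq1 to 1.70, Mb to 0.85 and Pvalb to 4.82 in FMRKO mice, and Ckm to -0.89, Myh4 to -1.55, Mb to -0.11 and Pygm to -0.082 in control mice. For corticosterone it reversed Acta1 to 0.71, Ckm to 2.78, Myh4 to 3.31, Mb to 0.35 and Pvalb to 2.57 in FMRKO mice, and Ckm to -1.07, Myh4 to -0.55, Casq1 to -1.14, Neb to -1.09 and Pygm to -1.03 in control mice.

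With the replicate block, 0 members passed for the high-fat diet in FMRKO mice and 2 in control mice, and 0 and 11 for corticosterone, while FMRKO against control had 0 in each condition. The block set FMRKO mice on the high-fat diet at 0.21 for Ckm, 0.0451 for Myh4, 1.16 for Casq1, 0.77 for Mb and 4.39 for Pvalb, and with corticosterone at 0.38 for Acta1, 1.12 for Ckm, 1.73 for Myh4, 0.16 for Mb and 1.81 for Pvalb. A block within the high-fat diet groups alone, where the numbers paired, left 0 members in FMRKO mice. Without the muscle-rich libraries the block gave 4 members for the high-fat diet in FMRKO mice and 0.0455 for Pygm in control mice, and DESeq2 size factors gave 4 members there in FMRKO mice. The cause of these changes was not tested.

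DESeq2, which gave an adjusted p to 5 of 31 members, called 1 for FMRKO on chow, 2 for the high-fat diet and 2 for corticosterone in FMRKO mice, 1 for corticosterone in control mice and 1 for the FMRKO effect with corticosterone minus on chow. Robust empirical Bayes called 1 member for corticosterone in control mice. Without scaling to length, the shares were 88.31% for Myh4, 9.258% for Myh1 and 0.843% for Myh7 in corticosterone control 2 and 98.57% for Myh4 in chow FMRKO 5. CPM of total counts summed to 752.3 in high-fat diet control 3, 4156 in corticosterone control 2 and 34570 in chow FMRKO 5.

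With each library left out in turn, members past the threshold numbered 3 to 6 for corticosterone against chow in FMRKO mice, without the 3 muscle-rich libraries, 0 to 28 for corticosterone against chow in FMRKO mice, 4 to 6 for corticosterone against chow in control mice, without the 3 muscle-rich libraries, 0 to 20 for corticosterone against chow in control mice, 2 to 6 for high-fat diet against chow in FMRKO mice, without the 3 muscle-rich libraries, 1 to 25 for high-fat diet against chow in FMRKO mice, 1 to 3 for high-fat diet against chow in control mice, without the 3 muscle-rich libraries and 0 to 1 for high-fat diet against chow in control mice. For corticosterone against chow in FMRKO mice, without the 3 muscle-rich libraries, the log2 fold changes spanned Tpm2 -0.25 to 0.0641. For corticosterone against chow in FMRKO mice, the log2 fold changes spanned Acta1 -4.54 to 0.75, Ckm -11.80 to 2.81, Mb -2.33 to 0.37, Myh4 -12.68 to 3.34 and Pvalb -8.83 to 2.59. For corticosterone against chow in control mice, without the 3 muscle-rich libraries, the log2 fold changes spanned Pvalb -0.35 to 2.93. For corticosterone against chow in control mice, the log2 fold changes spanned Casq1 -1.13 to 2.27, Ckm -0.99 to 7.80, Myh4 -0.54 to 6.79, Neb -1.09 to 2.85 and Pygm -1.02 to 2.60. For FMRKO against control on chow, the log2 fold changes spanned Ckm -4.28 to 10.97 and Myh4 -5.19 to 9.96. For FMRKO against control on the high-fat diet, the log2 fold changes spanned Acta1 -0.71 to 0.23, Des -0.0744 to 0.38 and Tnnt1 -0.11 to 0.83. For FMRKO against control with corticosterone, the log2 fold changes spanned Acta1 -2.40 to 0.14, Des -0.82 to 0.33 and Tnnt1 -1.34 to 1.17. For high-fat diet against chow in FMRKO mice, the log2 fold changes spanned Acta1 -5.10 to 0.19, Casq1 -3.67 to 1.76, Ckm -13.98 to 1.94, Mb -1.80 to 0.90, Myh4 -15.10 to 1.90 and Pvalb -6.55 to 4.87. For high-fat diet against chow in control mice, without the 3 muscle-rich libraries, the log2 fold changes spanned Neb -0.12 to 0.28 and Pygm -0.52 to 0.14. For high-fat diet against chow in control mice, the log2 fold changes spanned Ckm -0.83 to 5.49, Mb -0.10 to 3.25, Myh4 -1.54 to 4.49 and Pygm -0.0748 to 1.005. Values near 0 CPM rest on single reads, which limits every statement on Ckm, Myh4, Myh2, Pvalb and Mb in the 21 libraries.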

Other observations

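Other genes of the companion lists also moved among the 21 libraries. Phkg1, a glycogen phosphorylase kinase subunit, fell by 2.13 ± 0.30 on the log2 scale in control mice on the high-fat diet (edgeR adjusted p = 8.95e-05). Of the 10 listed myogenic regulators only 3 had enough counts to be tested, and 2 of these fell with corticosterone in each genotype. Six4 fell by 1.69 in FMRKO mice and 1.44 in control mice, and Mef2c by 1.34 and 0.79. Among all genes, 19.6% fell with corticosterone in FMRKO mice and 19.1% in control mice. Fbxo32, the ubiquitin ligase atrogin-1, fell with corticosterone by 0.35 in FMRKO mice (edgeR adjusted p = 0.0192) and by 0.29 in control mice (0.0472). These genes were chosen after their values were seen.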
